A study of Arabidopsis thaliana with 18 samples.

Results

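MTPA1 and ZIP9 are a pair of zinc transporter genes of Arabidopsis thaliana whose RNA was lower in roots after phosphate starvation and lower again after phosphate had been returned. They are 2 genes among 22810 probe sets of the ATH1 array, each read by 1 probe set that the platform table gives to that gene alone (locus AT3G61940 for MTPA1 and AT4G33020 for ZIP9). MTPA1 was chosen on its root values. It was the named gene with the lowest root response among those called without overlap between mock and starved roots. ZIP9 was taken beside it as a zinc uptake gene then measured. Their root levels and differences are therefore a description without a test, and only their shoot differences, which the choice did not use, were tested.

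RNA was taken from roots and shoots of wild-type Col-0 plants in aerated hydroponic MGRL medium. All plants had 20 days of full medium first. Mock plants stayed in full medium for 10 more days, starved plants spent those 10 days in medium with MES buffer in place of sodium phosphate, and replete plants went from starvation to full medium for another 3 days. Each of the 6 groups had 3 arrays, called biological replicates in the labels. Replete plants were 33 days old and the others 30 days old, and the effects of age and of renewed phosphate cannot be told apart. The organ labels held in the markers, with the photosynthesis gene PRK 8.86 lower on the log2 scale and the root hair gene EXPA7 5.05 higher in mock roots than in mock shoots. On the first principal component of the roots, starved array 3 stood at 23.3, closer to the mock arrays than starved arrays 1 (52.1) and 2 (49.5), and shoot starved array 3 stood apart in the same way.

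Zinc enters root cells mainly through plasma membrane transporters of the ZIP family, to which ZIP9 belongs. Members of the metal tolerance protein (MTP) family move zinc or other metals out of the cytosol, into an organelle or out of the cell. MTPA1, also called MTP2, is a zinc transporter of the endoplasmic reticulum. Both genes are known to rise in zinc-deficient plants under the transcription factors bZIP19 and bZIP23, and phosphate and zinc supply are known to affect the uptake of each other in plants.

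MTPA1 RNA was high in mock roots, far lower in starved roots and lowest in replete roots. The log2 values of its probe set were 9.08, 8.94 and 9.17 in the mock roots, with a mean of 9.06 ± 0.12 (SD, n = 3). They were 5.5, 5.28 and 6.37 in the starved roots (5.72 ± 0.58) and 5.16, 4.94 and 4.36 in the replete roots (4.82 ± 0.41). No value of a condition overlapped with those of the next, with a gap of 2.57 between the lowest mock and the highest starved root and of 0.12 between the lowest starved and the highest replete root. The response, starved minus mock, was -3.35 (standard error, SE, 0.248), which is a 10.2-fold lower level. The recovery, replete minus starved, was -0.90 (SE 0.248), a further 1.86-fold. Replete roots thus held 5.28% of the mock level, and 0 of the 22810 probe sets had a lower replete minus mock difference in roots than the -4.24 of MTPA1.

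ZIP9 RNA took the same order in roots over a smaller span. Its log2 values were 10.14, 9.68 and 10.03 in the mock roots (9.95 ± 0.24, n = 3), 8.58, 8.35 and 8.98 in the starved roots (8.64 ± 0.32) and 8.11, 7.76 and 7.46 in the replete roots (7.78 ± 0.33). Here too the conditions did not overlap, with gaps of 0.70 and 0.24. The response was -1.31 (SE 0.299, 2.49-fold lower) and the recovery -0.86 (SE 0.299, 1.82-fold lower), so that the step down in the recovery was close to that of MTPA1 while the response was smaller. Replete roots held 22.2% of the mock level of ZIP9, and 5 probe sets had a lower replete minus mock difference in roots than its -2.17.

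These root values chose the genes, and the counts beside them describe the array and carry no test of MTPA1 or ZIP9. Starved roots lay below mock roots without overlap for 10.2% of all probe sets, replete below starved roots for 21.8%, and replete below mock roots for 11.1%. Both steps down, from mock to starved and from starved to replete, were free of overlap in 30 probe sets (0.132%), of which 16 were given to 1 gene, MTPA1 and ZIP9 among them. Response and recovery share the starved arrays. In bulk RNA of a whole organ, fewer cells of a type and less RNA per cell cannot be told apart.

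**Figure D1:**
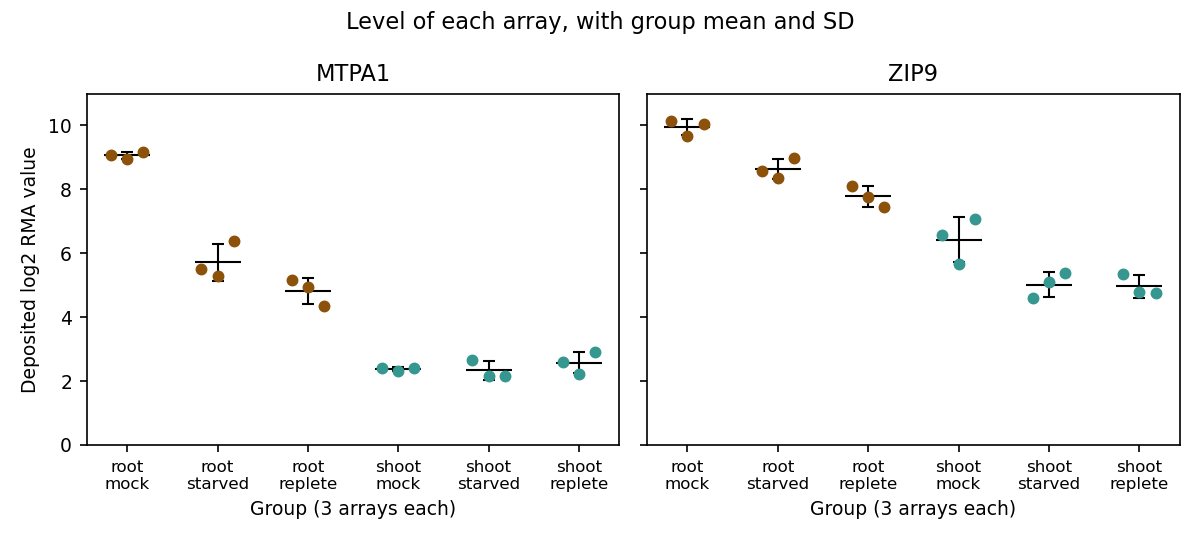
Deposited log2 values (vertical axis) of MTPA1 and ZIP9 in the 6 groups (horizontal axis), with a point for each array in the order of its replicate number, a long bar for the mean of 3 arrays and whiskers for the SD. Both genes step down from mock to starved to replete roots, MTPA1 from a mean of 9.06 to 4.82 and ZIP9 from 9.95 to 7.78, and MTPA1 lies between 2.16 and 2.90 in all shoots.

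The starved root array numbered 3 was the highest of its group for both genes, and root replete array 3 was the lowest of its group for both. Taken as deviations from the group means, the values of MTPA1 and ZIP9 had a Pearson r of 0.90 over the 9 root arrays, which share their RNA, and of -0.18 over the 9 shoot arrays. In all 9 shoot arrays MTPA1 lay under the lower quartile of the array. Without starved root array 3 the response was -3.67 for MTPA1 and -1.49 for ZIP9, and the recovery was -0.57 and -0.69. The recovery of MTPA1 was thus 1.57 times smaller on the log2 scale without that array. Its part in the result beyond these values was not tested.

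In shoots, MTPA1 showed no difference between conditions that passed the test. Its values were 2.41, 2.32 and 2.41 in mock shoots (2.38 ± 0.05, n = 3), 2.66, 2.17 and 2.16 in starved shoots (2.33 ± 0.29) and 2.60, 2.23 and 2.90 in replete shoots (2.58 ± 0.34). All 3 conditions overlapped. The shoot response was -0.05 (95% interval -0.58 to 0.48, limma adjusted p 0.963), the recovery 0.25 (-0.28 to 0.77, adjusted p 0.602) and replete minus mock 0.20 (-0.33 to 0.72, adjusted p 0.732). All 9 shoot values lay under the lower quartile of their own array, which was between 3.43 and 3.58 over the 18 arrays, whereas no root value did. Detection calls were not used here, and whether these shoot values were above background was not tested.

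ZIP9 was measured at higher values in shoots, and both starved and replete shoots lay below mock shoots. Its values were 6.58, 5.65 and 7.06 in mock shoots (6.43 ± 0.72, n = 3), 4.59, 5.09 and 5.37 in starved shoots (5.02 ± 0.40) and 5.36, 4.78 and 4.74 in replete shoots (4.96 ± 0.35). No starved or replete value reached the lowest mock value, which stood 0.28 above the highest starved and 0.29 above the highest replete shoot. Of all probe sets, 12.2% were lower in starved than in mock shoots without overlap and 13.6% in replete than in mock shoots. Starved and replete shoots overlapped.

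The shoot response of ZIP9 was -1.41 (SE 0.299, 95% interval -2.05 to -0.78), a 2.66-fold lower level, with an adjusted p of 0.0143 from limma's moderated test over all 22810 probe sets. Replete minus mock was -1.47 (SE 0.299, interval -2.10 to -0.84, 2.77-fold lower, adjusted p 0.0204). Neither passed the threshold of 0.001, which 0.399% of probe sets passed in the shoot response and 0.0219% in replete minus mock. With array weights the response was -1.82 and passed, with an adjusted p of 0.000492. The shoot recovery was -0.06 (interval -0.69 to 0.58, adjusted p 0.940), where 0.706% of probe sets passed. In size the shoot response of ZIP9 was near the lower end of the array, since 29 probe sets had a lower difference.

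Set side by side, the responses of ZIP9 were -1.31 in roots and -1.41 in shoots, and those of MTPA1 -3.35 and -0.05. The root minus shoot difference of ZIP9 was 0.10 in the response (SE 0.423, 95% interval -0.79 to 0.99) and -0.80 in the recovery (interval -1.70 to 0.09), given without a test because root arrays chose the genes. No such difference is given for MTPA1, whose shoot values all lay under the lower quartile of their arrays.

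**Figure D2:**
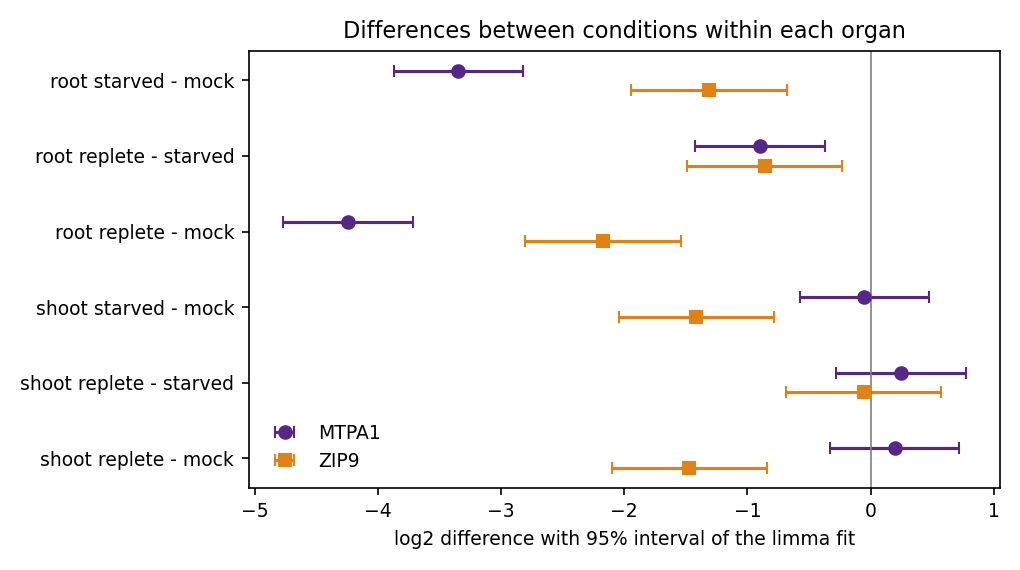
Differences between conditions within each organ (rows) on the log2 scale (horizontal axis) for MTPA1 (circles) and ZIP9 (squares), with the 95% interval of the fit as whiskers. The 3 root differences of both genes lie below 0, from -0.86 to -4.24, and in shoots the response (-1.41) and the replete minus mock difference (-1.47) of ZIP9 lie below 0 while the intervals of MTPA1 include 0.

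Over the 6 groups, both genes were highest in mock roots, then in starved roots, then in replete roots, and every root group lay above every shoot group without overlap. In mock plants ZIP9 stood 3.52 higher in roots than in shoots on the log2 scale, and no size is given for MTPA1 because of its dim shoot values. After recovery the lowest root value of ZIP9 was 0.40 above the highest shoot mock value, and that of MTPA1 was 1.46 above the highest shoot replete value. Below that the order of MTPA1 was shoot replete, mock and starved, whose neighbours all overlapped. For ZIP9 it was shoot mock, starved and replete, of which the last pair overlapped.

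The other measured genes of the zinc lists were then examined for the same steps, and none passed the test in any difference within an organ. Of 45 listed genes of zinc deficiency, the ZIP and MTP families, and zinc pumps, exporters and chelators, 11 had a probe set given to them alone, and 9 of these were other than MTPA1 and ZIP9. These 9 were bZIP19, ZIP6 and 7 loci of the MTP family, whose members move zinc or other metals. Of the 13 listed pumps, exporters and chelator genes 0 were measured. In all 6 differences within organs 0 of the 9 passed limma's adjusted p of 0.001, and at an unadjusted p under 0.05 the counts were 2, 2 and 1 in shoots (response, recovery, replete minus mock) and 2, 3 and 1 in roots. At that unadjusted p stood 17.2%, 23.6% and 18.7% of all probe sets in shoots and 23.1%, 37.9% and 18.3% in roots, so the shares of the 9 were near those of the array. For all probe sets the root response had 1.55% higher and 0.706% lower, the root recovery 2.35% higher and 2.78% lower, and root replete minus mock 0.0658% in either direction. The median root response of the 9 was -0.06, against 0.03 over all probe sets, and their median recovery was 0.11 against -0.05.

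bZIP19, a transcription factor that turns on zinc deficiency genes, had no difference within an organ that passed. Its mean root values were 9.10, 9.05 and 9.17 in mock, starved and replete plants, and its differences in roots lay between -0.06 and 0.12, with adjusted p of 0.445 or more. In shoots it stood at 8.17, 8.01 and 7.95. The other zinc deficiency genes of the list, among them other ZIP transporters and nicotianamine synthases, had no probe set named for them alone and were not analysed here.

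Of the transporters related to ZIP9, only ZIP6 was measured, a ZIP family member. Its root values were 6.79, 7 and 6.48 in mock, 6.58, 6.57 and 6.55 in starved and 6.73, 7.15 and 7.23 in replete plants. Its root recovery was 0.47 (SE 0.129, adjusted p 0.0132), opposite in sign to that of ZIP9, and its shoot recovery was -0.51 (SE 0.129, adjusted p 0.0223). Neither passed.

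Of 7 measured loci listed in the MTP family, AT3G58060 had the largest root response. Its values were 8.89, 7.98 and 7.06 in mock roots, 6.44, 6.83 and 5.71 in starved roots and 7.53, 7.73 and 6.90 in replete roots. The mock and starved roots did not overlap, while the replete roots overlapped with the mock roots. The response was -1.65 (SE 0.356, adjusted p 0.00617) and the recovery 1.06 (SE 0.356, adjusted p 0.0370), so that the level of AT3G58060 stood higher again in replete roots, where MTPA1 and ZIP9 were lower still. Without root mock array 3 its response was -2.11 and passed, with an adjusted p of 0.000558, and without root mock array 1 it was -1.19. With single arrays left out, the adjusted p of this response ranged up to 0.0336. AT1G51610 had a root response of 0.33 (SE 0.131, adjusted p 0.132), which was 0.18 without root starved array 2, and a recovery of -0.57 (SE 0.131, adjusted p 0.00461). Root responses of the other 5 loci, MTP11 among them, lay between -0.32 and 0.15.

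Iron deficiency genes were set beside the zinc genes because some ZIP family transporters carry both metals. Like the zinc lists, this list was chosen with earlier results of these data known, so its calls are no independent test. Of 18 listed, 5 were measured. In starved roots 2 of the 5 fell, against 0.706% of all probe sets. They were AT3G12900 and BGLU42, a beta-glucosidase that acts in the release of iron-mobilising coumarins. All 5 root responses were below 0 with an unadjusted p under 0.05, as were the p of 23.1% of all probe sets in either direction. In the root recovery and in replete minus mock the counts at that unadjusted p were 2 and 3 of 5. AT3G12900 had values of 11.80, 11.02 and 10.94 in mock, 9.04, 8.86 and 9.18 in starved and 10.68, 10.74 and 10.63 in replete roots. It fell in the response (-2.23, SE 0.175, adjusted p 2.81e-07) and rose in the recovery (1.66, SE 0.175, adjusted p 6.12e-06), and it was the only one of the 5 to pass in the recovery.

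BGLU42 stood at 10.71, 10.03 and 9.71 in mock, 8.42, 8.33 and 8.93 in starved and 9.54, 8.98 and 8.84 in replete roots. Its response was -1.59 (SE 0.228, adjusted p 0.000202), which no longer passed when root mock array 1 or root starved arrays 1 or 2 were left out (adjusted p up to 0.00213), and its recovery was 0.56 (adjusted p 0.0815) and 0.35 without root replete array 1. The other 3 were the transcription factor genes BHLH101 and PYE and F6'H1 (AT3G13610), a hydroxylase gene of scopoletin synthesis. Their root responses were -1.36, -0.55 and -0.85 with adjusted p of 0.082 or more. The median root response of the 5 iron genes was -1.36 and their median recovery 0.56, with 4 of 5 recoveries above 0 and PYE at 0, whereas both zinc transporter genes had a recovery below 0.

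In shoots 0 of the 5 iron genes passed in any of the 3 differences, and 3, 1 and 2 had an unadjusted p under 0.05 in the response, the recovery and replete minus mock. Over all probe sets the shares that passed were 0.399%, 0.706% and 0.0219%, and those at the unadjusted p were 17.2%, 23.6% and 18.7%. PYE, a regulator of the iron deficiency response, had values of 6.34, 5.92 and 6.35 in mock, 4.92, 4.89 and 4.75 in starved and 6.73, 5.67 and 5.47 in replete shoots. Its shoot response of -1.35 (SE 0.234, adjusted p 0.0039) was about as large as that of ZIP9, and its recovery was 1.10 (adjusted p 0.00845) where that of ZIP9 was -0.06. Without shoot replete array 1 the response of PYE passed (adjusted p 4.62e-05) and its recovery was 0.72. F6'H1 (AT3G13610) had a shoot response of -1.92 (SE 0.377, adjusted p 0.00954) and BHLH101 one of -1.44 (SE 0.470, adjusted p 0.1), which was -0.80 without shoot mock array 3. The root minus shoot difference of the response of AT3G12900 was -1.86 (SE 0.247, adjusted p 0.000542) and that of its recovery 1.59 (SE 0.247, adjusted p 0.000758). Both passed, but with single arrays left out the first passed in 9 and the second in 5 of 18 settings. The shoot values of AT3G12900 were low, between 3.97 and 4.59. Of all probe sets 0.272% passed for the first of these differences and 1.1% for the second.

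**Figure D3:**
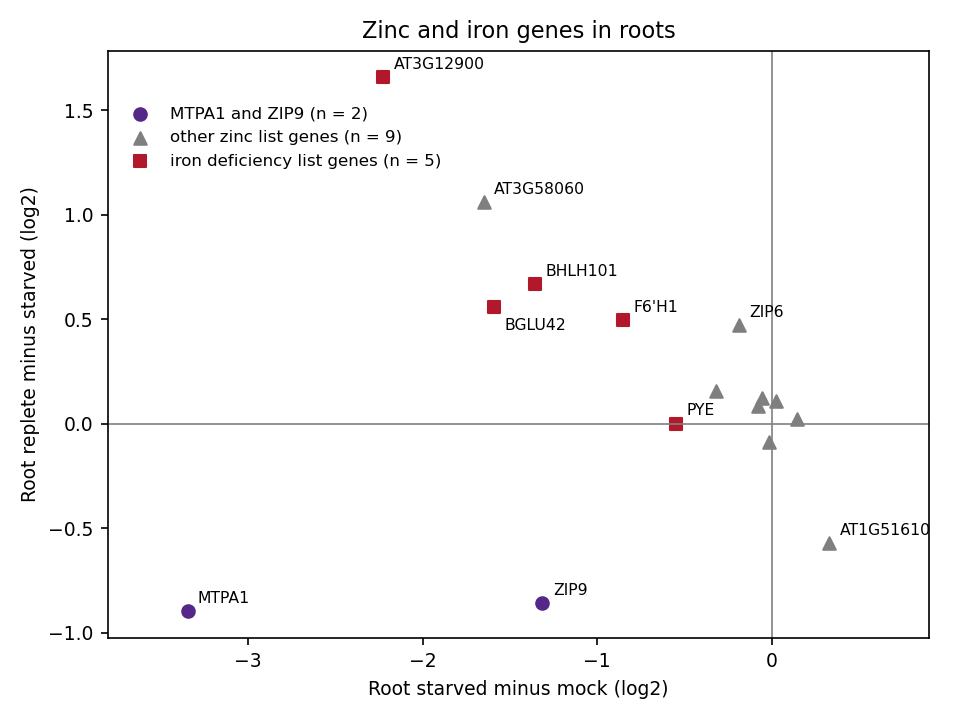
Root response (starved minus mock, horizontal axis) against root recovery (replete minus starved, vertical axis), both in log2, for MTPA1 and ZIP9 (circles), 9 other zinc list genes (triangles) and 5 iron deficiency genes (squares). MTPA1 (-3.35, -0.90) and ZIP9 (-1.31, -0.86) lie below 0 on both axes, while AT3G12900 (-2.23, 1.66) and AT3G58060 (-1.65, 1.06) lie below 0 in the response and above 0 in the recovery. The axes share the starved arrays.

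The probe sets most like each gene were ranked by Pearson r among those given to 1 gene. Over the 9 root arrays the nearest to MTPA1 were AT1G12030 (r = 0.99), ZIP9 (0.97), AT4G02660 (0.97), AT5G42740 (0.95) and AT5G14540 (0.95). The nearest to ZIP9 were AT5G14540 (0.99), AT1G12030 (0.99), MTPA1 (0.97), AT5G42740 (0.97) and AT1G20380 (0.97). MTPA1 and ZIP9 were each among the 3 nearest of the other in roots. Root values chose the genes, so this likeness is a description and no separate support for the pair. In shoots their r was -0.22 over 9 arrays, in all of which MTPA1 lay under the lower quartile of the array.

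AT1G12030 spanned 3.55 on the log2 scale between mock and replete roots, between the spans of MTPA1 and ZIP9. Its mean root values were 8.53 ± 0.34 in mock, 5.97 ± 0.32 in starved and 4.99 ± 0.42 in replete plants (n = 3 each), and none of the 3 overlapped. In shoots they were 5.74 ± 0.61, 4.52 ± 0.41 and 4.88 ± 0.47. AT1G20380 went from 10.50 ± 0.16 over 9.52 ± 0.28 to 7.94 ± 0.49 in roots and from 8.51 ± 0.72 over 6.74 ± 0.14 to 6.62 ± 0.70 in shoots. The means of ZIP9 had the same order in both organs, but starved and replete shoots overlapped for both genes. AT5G14540 followed the same order in roots over a narrower span, from 9.17 ± 0.17 over 8.59 ± 0.21 to 8.07 ± 0.16.

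Over all 18 arrays, where the organ difference enters, the nearest to MTPA1 were AT5G14540 (r = 0.96), AT1G11920 (0.96), AT1G32740 (0.95), AT1G50720 (0.94) and BGLU42 (0.94). The nearest to ZIP9 were AT5G14540 (0.98), MAB1 (0.96), AT3G12760 (0.95), AT3G05280 (0.95) and FAAH (0.95). The r between MTPA1 and ZIP9 was 0.92, at rank 13 for MTPA1 and rank 67 for ZIP9. AT5G14540 was the nearest gene to each over the 18 arrays. These correlations are over arrays that fall into groups and describe the 18 arrays without a test.

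**Figure D4:**
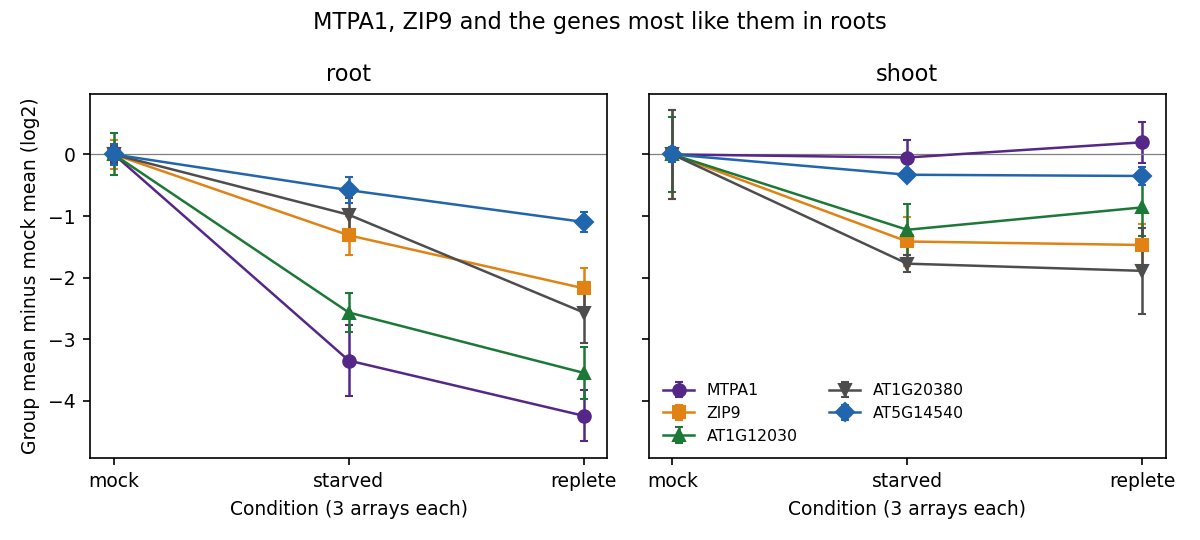
Group mean minus the mock mean of the same organ on the log2 scale (vertical axis) in mock, starved and replete roots (left) and shoots (right) for MTPA1, ZIP9 and the genes AT1G12030, AT1G20380 and AT5G14540, with the SD of 3 arrays as whiskers. All 5 lie lower in starved and lower again in replete roots, MTPA1 to -4.24 and ZIP9 to -2.17, and in shoots ZIP9, AT1G12030 and AT1G20380 lie below the mock level in starved plants while MTPA1 stays near 0.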

How the data were processed

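The authors made the deposited log2 values from Affymetrix ATH1 arrays with affy in R, which corrected the background, normalized the quantiles across arrays and summarised each probe set by median polish. The version of affy was not given in the sources used here. The deposited table held 22810 probe sets in 18 arrays. Genes were named through the platform table and the RefSeq gene table (TAIR10.1), and 13513 probe sets were given to 1 gene. Loci without a symbol there keep their locus identifier, and no coordinates or sequences are given. Scanner files and detection calls were not used here, and 3 arrays per group limit the precision.

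In R 4.3.3, limma 3.58.1 (lmFit and eBayes) fitted 6 group means to every probe set. There were 12 residual degrees of freedom, and 16.5 after moderation. A difference was called when its two-sided p, adjusted after Benjamini and Hochberg over all probe sets, was at most 0.001. The study's methods name Bonferroni, an alternative here. The fit was tested on simulated data. Further alternatives were a looser threshold, a replicate block, a fit per organ, other scaling, a filter on dim probe sets, array weights, a trended and robust fit, and leaving out each array.

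MTPA1, ZIP9 and the lists were chosen with earlier results of these data known. Named were both genes, listed genes that passed or were among the 4 smallest p per list and difference, and per gene the 5 probe sets with the highest Pearson r over 18 arrays and over the 9 root arrays. Replicate numbers were not used to pair the arrays in the main fit. Deviations of same-numbered arrays within an organ correlated between -0.113 and 0.454, with a median of 0.18 in shoots and 0.06 in roots. For arrays with different numbers the medians were -0.04 in shoots and -0.03 in roots. Whether the numbers pair arrays was thus left undecided, and pairing between roots and shoots was not examined.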

Additional observations from a re-analysis of the deposited data

Results flagged for a closer look

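AT3G12900, a locus of the iron deficiency list, was the only listed gene whose root minus shoot difference passed the test, and neither difference held in all settings. The list was chosen with earlier results of these data known. Its response was -2.23 in roots and -0.36 in shoots, a difference of -1.86 (SE 0.247, limma adjusted p 0.000542), and no value of the starved roots reached the mock roots. Its recovery was 1.66 in roots and 0.06 in shoots, a difference of 1.59 (SE 0.247, adjusted p 0.000758). The adjusted p of the first difference ranged from 5.91e-05 to 0.0228 over the other settings and that of the second from 0.000126 to 0.161. With single arrays left out they ranged up to 0.0027 and 0.00313, and the first difference passed in 9 and the second in 5 of 18 settings. MTPA1 and ZIP9 were not tested in this way, because root arrays chose them.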

How the results depend on the processing

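The 3 root differences of MTPA1 and ZIP9 stayed below 0 in all settings and moved by less than 1 SD of the arrays. Without single arrays the MTPA1 root response ranged from -3.67 to -3.13 and the ZIP9 one from -1.49 to -1.17. ZIP9 passed in the shoot response (-1.41) and in replete minus mock (-1.47) at a threshold of 0.05, and in the response with array weights (-1.82). With a fit of 1 organ alone, neither of these ZIP9 differences passed even at 0.05. Without single arrays the ZIP9 shoot response ranged from -1.80 to -1.10 and its adjusted p from 0.00118 to 0.0704. Differences near 0 changed sign without single arrays. The MTPA1 shoot response ranged from -0.215 to 0.035, with 0.030 and 0.035 without shoot starved arrays 2 and 3, and the ZIP9 shoot recovery ranged from -0.27 to 0.12, with 0.12 without shoot starved array 3 and 0.033 and 0.053 without shoot replete arrays 2 and 3. The causes were not tested.

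At a threshold of 0.05 the 9 other zinc list genes had 1 call in the root response, 3 in the root recovery and 1 in the shoot recovery in place of 0. The iron genes had 2 in the shoot response, 1 in the shoot recovery and 1 in root replete minus mock in place of 0. With Bonferroni adjustment the iron genes had 1 call in the root response in place of 2 and 0 in the root recovery in place of 1, and with a fit of 1 organ alone 1 in the root response. Array weights gave 2 iron calls in the shoot response and 1 zinc call in the root recovery. Without single arrays the iron calls ranged from 1 to 2 in the root response and from 0 to 1 in the shoot response, and the zinc calls from 0 to 1 in the root response. With the replicate block AT3G58060 passed in the root response (-1.65, adjusted p 0.000462), giving 1 zinc call, and the root minus shoot differences of AT3G12900 did not (adjusted p 0.00136 and 0.00152). No other call of a named gene changed with the block. Over the other settings, calls over all probe sets ranged from 125 to 2220 (515 in the main setting) in the root response, 165 to 5993 (1169) in the root recovery, 2 to 652 (15) in root replete minus mock, 32 to 883 (91) in the shoot response, 41 to 1983 (161) in the shoot recovery and 0 to 628 (5) in shoot replete minus mock.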
